A study of Mus musculus with 19 samples.

Results

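Activated and resting regulatory T cells (Tregs) that both lacked p65 were compared with each other, to ask which part of the activated programme was seen without this transcription factor. The comparison rests on 4 of the 19 RNA-seq libraries of the series, chosen by their labels: 2 p65KO resting Treg (rTreg) and 2 p65KO activated Treg (aTreg) libraries. They belong to a set of 13 libraries of sorted cells, which also holds 5 WT libraries (2 rTreg, 3 aTreg) and 4 cRelKO libraries (2 rTreg, 2 aTreg). All mice were C57Bl/6 and carried Foxp3-CRE-YFP, a Cre recombinase and yellow fluorescent protein driven by Foxp3. WT mice carried nothing else that the labels name, p65KO mice were in addition p65 F/F, and cRelKO mice were in addition c-Rel F/F, so the subunit is deleted in cells where Foxp3 drives Cre. Cells were taken from spleen and lymph nodes, sorted as Foxp3+ (YFP+), and split by surface markers into CD44lo rTregs and CD44hi aTregs. RNA was extracted directly after sorting, with no culture. The mice's age, and whether replicates were separate mice, are not given in the sources used here, so p-values measure the spread between these libraries only.

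Tregs are CD4 T cells that hold down immune responses and depend on the transcription factor Foxp3. Resting Tregs recirculate through lymphoid organs with homing receptors such as CCR7, whereas activated or effector Tregs lose these, gain inhibitory and chemokine receptors and enter tissues. NF-kB is a family of dimeric transcription factors built from p65 (gene Rela), c-Rel (Rel), RelB (Relb), p50 (Nfkb1) and p52 (Nfkb2), held back by IkB proteins and released by antigen and TNF family receptors. p65 and c-Rel are the main activating subunits of the canonical pathway, and RelB with p52 those of the non-canonical pathway.

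Values are RPKM, read counts scaled to gene length and library size, as deposited, with values below 0 set to 0. A change is the difference aTreg minus rTreg of log2(RPKM + 0.5), which understates the change of low genes, given ± its standard error. A gene is called when its limma adjusted p is under 0.05 over the 10656 genes tested. With 2 libraries against 2, an exact permutation test of a single gene cannot go below 0.333 (two-sided), so the calls rest on the spread shared across genes and groups. The deposited values carry no read totals, so no depth can be set beside a value. The number of genes at 1 RPKM or more ran from 9765 to 10317 over the sorted libraries. In bulk RNA, fewer cells of a type and less RNA per cell cannot be told apart.

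The sort marker Cd44 and the targeted gene were examined first. Cd44, an adhesion receptor that binds hyaluronan, was at 14.8 and 6.52 in p65KO rTregs and at 34.5 and 32.8 in p65KO aTregs (log2 change 1.72 ± 0.46, adjusted p = 0.0727). The groups did not overlap and lay on the side that the sort sets, without passing the test.

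Rela (chromosome 19, 5637483 to 5648130 in mm10) gave 69.4 and 59.9 RPKM in p65KO rTregs, 46.8 and 56.1 in p65KO aTregs, 71.5 and 69.0 in WT rTregs and 62.3 to 68.3 in WT aTregs. Only the p65KO aTregs lay below all WT libraries of their state, and 1 p65KO rTreg library lay within the WT range. How much of the gene the F/F allele removes is not given in the sources used here, so a value over the whole gene is a weak check of the deletion. Foxp3 was at 64.1 and 64.0 in p65KO rTregs and at 62.3 and 90.1 in p65KO aTregs, groups that overlap (log2 change 0.22 ± 0.37, adjusted p = 0.749).

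**Figure D1:**
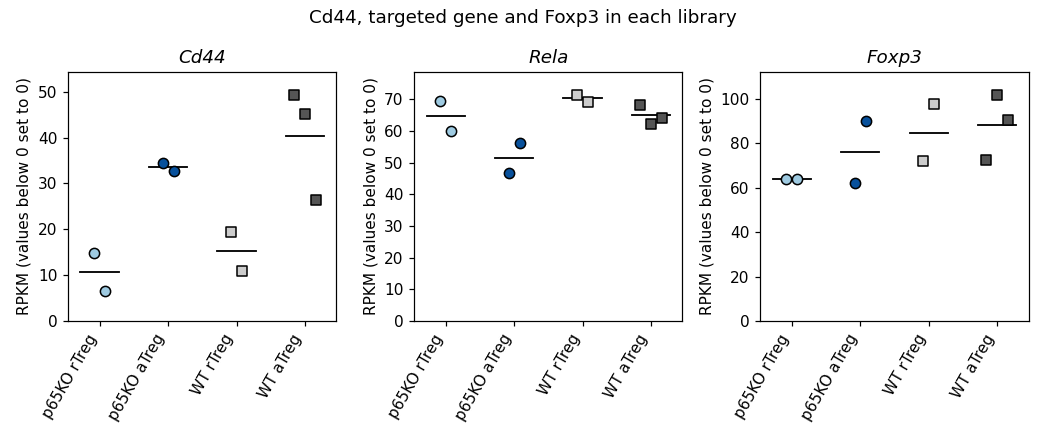
RPKM of Cd44, Rela and Foxp3 in each p65KO and WT library (points, bars are group means), with 2 libraries per group and 3 in WT aTreg. Cd44 is higher in both p65KO aTreg libraries (34.5 and 32.8 RPKM) than in either p65KO rTreg library (14.8 and 6.52), and Foxp3 overlaps between the p65KO groups.

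Of the genes tested, 297 were called higher in p65KO aTregs (2.79% of all tested) and 41 lower (0.385%), 338 in all (3.17%). The genes called higher changed by a median of 1.48 on the log2 scale, and 235 of them by at least 1. The genes called lower changed by a median of 0.842 and 11 of them by at least 1. The balance over all tested genes was the other way: both p65KO aTreg libraries lay below both p65KO rTreg libraries in 3941 genes (37.0%) and above them in 2896 (27.2%), 57.8% of changes were below 0, and the median was -0.06. Without p65KO rTreg replicate 1, p65KO rTreg replicate 2, p65KO aTreg replicate 1 or p65KO aTreg replicate 2, the counts fell to 0, 0, 0 and 7 higher and to 0, 0, 1 and 4 lower. Fitting only the groups compared gave 865 higher and 585 lower, so the number of calls depends on the estimate of the spread.

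Among called genes whose higher group averaged 5 RPKM or more, the 8 largest rises were those of Il1r2, Penk, Klrg1, Atp6v0d2, Cxcr3, Myo1f, Cd83 and Tmbim1. Il1r2, the decoy receptor that captures interleukin-1, was at 1.92 and 8.06 RPKM in p65KO rTregs and at 86.7 and 79.8 in p65KO aTregs (log2 change 4.20 ± 0.65, adjusted p = 0.0111). Penk, the precursor of enkephalin peptides, was at 5.86 and 12.0 against 167 and 132 (4.07 ± 0.45, adjusted p = 0.00585). Klrg1, an inhibitory lectin-like receptor of terminally differentiated T cells, was at 6.00 and 4.81 against 72.0 and 81.4 (3.71 ± 0.39, adjusted p = 0.00585). In each of these genes the libraries of the resting and activated state lay far apart relative to their spread, and the WT aTregs held like levels: 43.9 to 87.8 for Il1r2, 102 to 141 for Penk and 62.0 to 82.3 for Klrg1.

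Cxcr3, the receptor that guides T cells to type 1 inflammation, was at 22.3 and 8.86 RPKM in p65KO rTregs and at 146 and 152 in p65KO aTregs (3.35 ± 0.69, adjusted p = 0.0294). Myo1f, a class I myosin of leukocytes, went from 4.70 and 2.46 to 42.8 and 33.2 (3.28 ± 0.50, adjusted p = 0.0106). Tmbim1 went from 0.626 and 2.97 to 20.5 and 13.8 (3.13 ± 0.61, adjusted p = 0.0261). Atp6v0d2, a subunit of the vacuolar proton pump, was at 0 (which may stand for a value below 0) and at 0.97 in rTregs and at 14.7 and 6.52 in aTregs (3.59 ± 0.72, adjusted p = 0.028). The libraries of rTreg replicates 1 and 2 differed among themselves by more than 2 times in Il1r2, Penk, Atp6v0d2, Cxcr3, Cd83 and Tmbim1, and still did not overlap with aTregs.

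The 8 largest falls under the same rule were smaller. Prf1, which encodes the pore-forming protein perforin, was at 13 and 8.38 RPKM in p65KO rTregs and at 1.99 and 2.33 in p65KO aTregs (-2.04 ± 0.46, adjusted p = 0.0403). Smim4 was at 24.4 and 25.0 against 6.52 and 10.8 (-1.50 ± 0.35, adjusted p = 0.0484). Fndc10, Apol7e, Adpgk (an ADP-dependent glucokinase), Gucd1, Mboat1 (a phospholipid acyltransferase) and Xylt2 (a xylosyltransferase that starts proteoglycan chains) changed by -1.26, -1.22, -1.19, -1.13, -1.0 and -0.99. In WT, 2 of these 8, Prf1 and Apol7e, were called lower, and the changes of all 8 had the same sign as in p65KO.

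**Figure D2:**
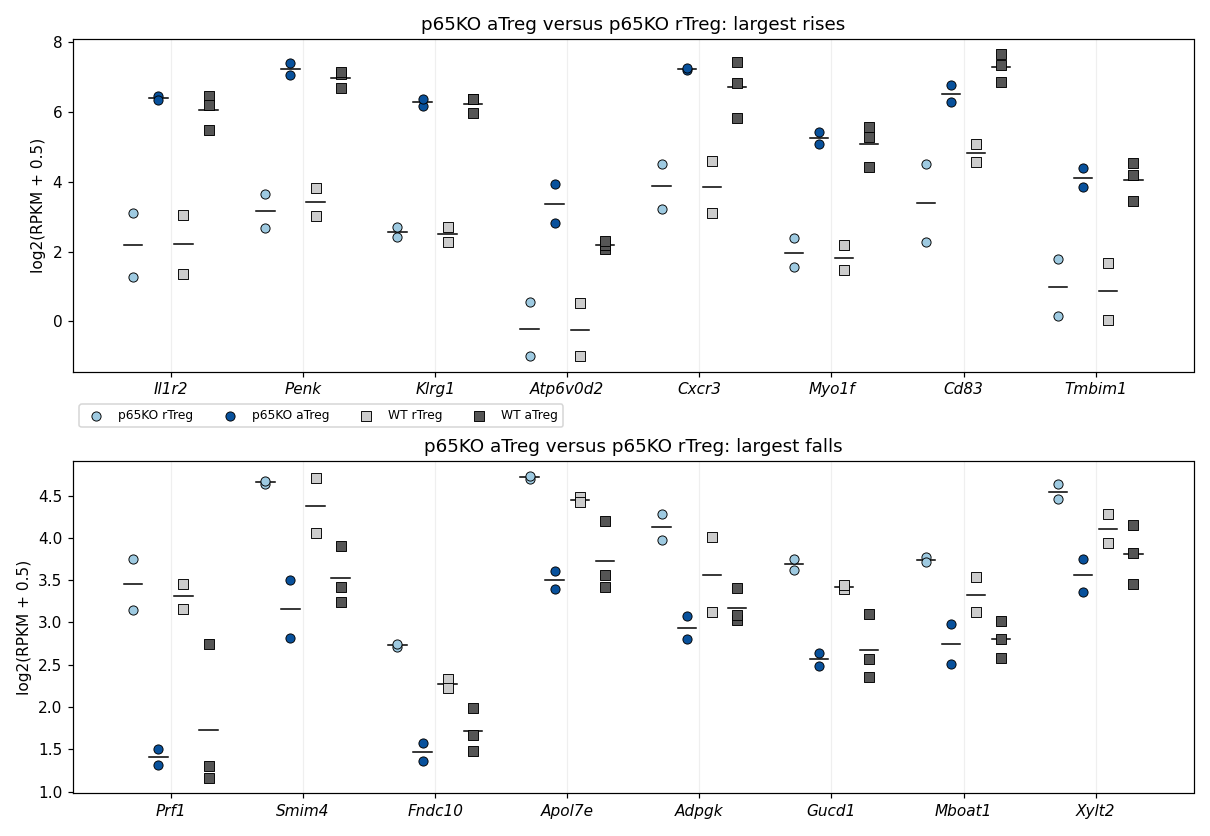
log2(RPKM + 0.5) in each p65KO and WT library for the 8 genes with the largest called rises (top) and falls (bottom) in p65KO aTregs against p65KO rTregs; short bars are group means. In all 16 genes the p65KO aTreg points lie wholly on one side of the p65KO rTreg points, and the WT group means differ in the same direction.

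The WT aTregs and rTregs, which share no library with the p65KO comparison but share its estimate of the spread, define the activated programme. The genotypes also share replicate numbers. In rTreg replicates 1 and 2, Cxcr3 was at 22.3 and 8.86 RPKM in p65KO and at 23.8 and 8.1 in WT. Il1r2 was at 1.92 and 8.06 in p65KO and at 2.09 and 7.8 in WT. How many genes do so was not computed. The WT and p65KO changes, and their shared signs, cannot be taken as independent. In WT, 803 genes were called higher (7.54% of all tested) and 499 lower (4.68%). Of the 803, 253 were called higher in p65KO too, which is 31.5% of the WT set and 85.2% of the p65KO set, against 2.79% of all genes called higher in p65KO. None of the 803 was called lower in p65KO, and the change had the same sign in 800. Of the 499 genes called lower in WT, 12 were called lower in p65KO (2.4% of the WT set, 29.3% of the p65KO set, against 0.385% of all genes), while 488 had the same sign.

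These counts depend on which WT library is used, since WT differs among its own libraries. Without WT aTreg replicate 1, 2 or 3, the genes called higher in both were 69 of 83, 68 of 87 and 541 of 1222. Without WT rTreg replicate 1 they were 147 of 239. Without WT rTreg replicate 2 they were 231 of 1271, and the same sign then held in 883 of the 1271 genes called higher in WT. For the genes lower in both, the counts were 3 of 10, 22 of 1692, 0 of 0, 0 of 4 and 169 of 1170 without WT rTreg replicates 1 and 2 and WT aTreg replicates 1, 2 and 3. The deposited table of the authors holds a WT aTreg versus rTreg comparison, but its p65KO comparisons are against WT. Of 933 tested genes that were higher in the authors' deposited table, 250 were called higher here in p65KO (26.8%), and of 434 lower, 7 were called lower (1.61%).

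The size of the change was set side by side in genes chosen by the change in another genotype, cRelKO. The spread behind that choice was estimated over all 13 libraries, so the p65KO and WT libraries had a part in it. The cRelKO libraries also share replicate numbers with them, so the choice is not fully independent of either. The cRelKO libraries gave 0 genes at an adjusted p under 0.05 by limma and 1494 at an unadjusted p under 0.05, so genes with an unadjusted p under 0.01 were taken, a choice made after the data were seen. The 445 genes higher in cRelKO aTregs had a median log2 change of 1.11 in p65KO and 1.14 in WT. By library, the medians over the rTreg mean were 1.16 and 1.11 in the p65KO aTregs and 1.45, 1.32 and 0.65 in the WT aTregs, so the p65KO values lay inside the WT range. For the 21 genes lower in cRelKO aTregs the medians were -0.38 and -0.31. Where the genes were chosen by a call in WT, the median was 0.91 in p65KO against 1.09 in WT for rises, and -0.40 against -0.64 for falls. Where they were chosen by a call in p65KO, it was 1.48 against 1.28 and -0.84 against -0.48, so that the genotype used for choosing had the larger median in each case.

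**Figure D3:**
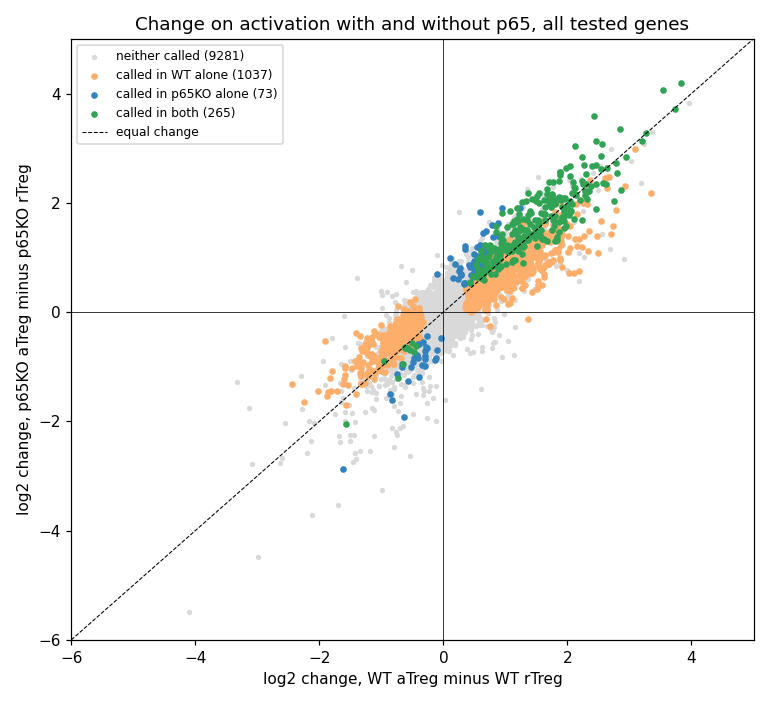
log2 change aTreg minus rTreg of every tested gene in WT (x axis) and in p65KO (y axis), coloured by limma call (in neither, in WT alone, in p65KO alone or in both), with the dashed line marking equal change. The 265 genes called in both (253 higher, 12 lower) lie in the upper right and lower left corners, and genes called lower are fewer and closer to 0 than genes called higher.

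The test of the difference itself, p65KO change minus WT change, called 0 of 10656 genes by limma (0.0%), and 237 genes (2.22%) had an unadjusted p under 0.05. No gene can therefore be said here to change more or less without p65. The 2.22% is below the share that a threshold of 0.05 passes when no gene differs. The test was thus strict in these data, and 0 calls do not show that the changes were equal. Among genes called in WT, those with the smallest p whose change was smaller or opposite in p65KO were Zfp873, Idh1, Ifrd1, Caml, Il10ra and Tmem164. Il10ra, the ligand-binding chain of the interleukin-10 receptor, was at 57.4 and 59.8 RPKM in p65KO rTregs and at 79.3 and 82.0 in p65KO aTregs, against 37.5 and 36.4 in WT rTregs and 67.3 to 84.9 in WT aTregs. The activated states overlapped and the p65KO rTregs were higher than the WT rTregs, and the difference of the changes was -0.58 ± 0.19 (unadjusted p = 0.0115, adjusted p = 0.998).

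Idh1, the cytosolic isocitrate dehydrogenase, was at 4.73 and 5.24 RPKM in p65KO rTregs and at 6.24 and 5.19 in p65KO aTregs, against 7.11 and 6.62 falling to 4.35 to 4.90 in WT (difference 0.72 ± 0.20, unadjusted p = 0.00501, adjusted p = 0.998). Ifrd1, a transcriptional co-regulator, was at 26.7 and 30.6 against 29.9 and 27.8 in p65KO, and at 43.3 and 37.6 against 25.1 to 28.4 in WT. In Idh1 and Ifrd1 the WT rTregs stood above both p65KO states. Among programme genes whose change was numerically larger in p65KO, those with the smallest p were Mif4gd, Gstt2, Anxa4 and Ptger2. Their differences had an unadjusted limma p of 0.0327, 0.0697, 0.0739 and 0.0864 in this order (adjusted p = 0.998 for each). Ptger2, a receptor for prostaglandin E2, was at 5.11 and 6.52 against 25.3 and 20.9 in p65KO (1.90 ± 0.28, adjusted p = 0.00931) and at 8.86 and 8.69 against 15.0 to 24.8 in WT.

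Genes called in p65KO with an unadjusted p of at least 0.05 in WT numbered 13 higher and 11 lower. Cd79b, a B-cell receptor chain, was at 8.59 and 9.20 RPKM in p65KO rTregs and at 20.7 and 21.8 in p65KO aTregs (1.21 ± 0.24, adjusted p = 0.028), and at 11.7 to 16.6 against 14.0 to 22.1 in WT. The summed B cell markers were 49.1 to 51.5 in p65KO rTregs and 75.7 to 84.6 in p65KO aTregs, with 5 of the 6 tested B cell markers above 0 (median 0.23, 1 called). The B cell genes Ms4a1 and Pax5 were too low to be tested, at 0.253 or less in the 4 libraries. The part of B cell RNA in the Cd79b result was not tested. Slc25a33, a mitochondrial carrier for nucleotides, changed by 0.99 ± 0.18 (adjusted p = 0.0194), and Agpat2, an enzyme of phospholipid synthesis, by 0.75 ± 0.14 (adjusted p = 0.0229). Dusp7, a MAP kinase phosphatase, was at 31.2 and 27.3 against 16.3 and 15.2 (-0.87 ± 0.18, adjusted p = 0.0324). For Slc25a33 and Dusp7 the differences from WT were 0.88 ± 0.24 and -0.73 ± 0.25 (unadjusted p = 0.00411 and 0.014, adjusted p = 0.998 for both).

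In all, 19 gene lists were then described in turn. Of the called genes, 35 of the 297 higher and 1 of the 41 lower belong to any of them. The share of all tested genes at an unadjusted p under 0.05 in p65KO was not computed. List counts at that threshold therefore have no background beside them. The list of effector Treg factors and mediators held the most calls. Of its 29 tested members 13 were called higher in p65KO aTregs and none lower, against 15 in WT, where 2.79% of all genes were called higher in p65KO and 7.54% in WT. All 29 changes were above 0, against 42.2% of all genes. The median log2 change was 1.84 in p65KO and 1.90 in WT. Without p65KO aTreg replicate 2 the count was 1 of the 28 members then tested, and without each of the other 3 p65KO libraries 0. The WT count was 9 and 12 without WT rTreg replicates 1 and 2, and 5, 6 and 20 without WT aTreg replicates 1, 2 and 3.

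Among the transcription factors of this list, Prdm1 (Blimp-1, which drives effector differentiation) was at 4.35 and 2.80 RPKM in p65KO rTregs and at 11.1 and 11.8 in p65KO aTregs (1.58 ± 0.32, adjusted p = 0.0294). WT aTregs held 9.21 to 18.4. Batf, an AP-1 family factor, was at 49.9 and 56.7 against 113 and 126 (1.16 ± 0.23, adjusted p = 0.027). Nfil3, a basic leucine zipper factor, was at 3.99 and 3.42 against 18.9 and 17.4 (2.15 ± 0.36, adjusted p = 0.0155). Pparg, the nuclear receptor of adipose tissue Tregs, was low but called, at 0.148 and 0.0412 against 1.39 and 1.45. Irf4, a partner of BATF, and Maf did not pass the test: Irf4 was at 13.1 and 10.3 against 20.5 and 28.2 (1.02 ± 0.53, adjusted p = 0.286) and Maf at 23.1 and 5.06 against 35.9 and 46.0 (1.84 ± 0.92, adjusted p = 0.266).

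Of the receptors and mediators in the list, Il1rl1 (ST2, the interleukin-33 receptor of tissue Tregs) was at 2.83 and 1.27 RPKM against 14.6 and 15.8 (2.69 ± 0.39, adjusted p = 0.00932). Ccr8, a chemokine receptor of effector Tregs, was at 9.36 and 15.3 against 71.3 and 72.7 (2.54 ± 0.46, adjusted p = 0.0195). Ebi3, a chain of interleukin-35 and interleukin-27, was at 7.48 and 4.85 against 29.7 and 35.6 (2.34 ± 0.48, adjusted p = 0.0303). Lgals3, Anxa2 and S100a11 were also called higher. Il10 did not pass, at 3.2 and 1.96 against 6.68 and 7.34, with the WT aTregs spread from 2.49 to 15.4.

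Il1rn, the secreted interleukin-1 receptor antagonist, was the member of this list with the smallest p in the difference of activation. It was at 0.0616 and 0.130 RPKM in p65KO rTregs and at 0.291 and 0.248 in p65KO aTregs (0.37 ± 0.29, adjusted p = 0.475). In WT it was at 0.104 and 0.195 in rTregs and at 1.46, 1.21 and 1.09 in aTregs (1.43 ± 0.27, adjusted p = 0.017). All WT aTreg libraries lay above both p65KO aTreg libraries, in a gene of low level, and the difference of the changes was -1.06 ± 0.40 (unadjusted p = 0.023, adjusted p = 0.998). In the authors' deposited table Il1rn was lower in p65KO aTregs than in WT aTregs by a log2 value of -2.41 (adjusted p = 0.00867, adjusted here), and in rTregs by -0.87 (adjusted p = 1.0).

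**Figure D4:**
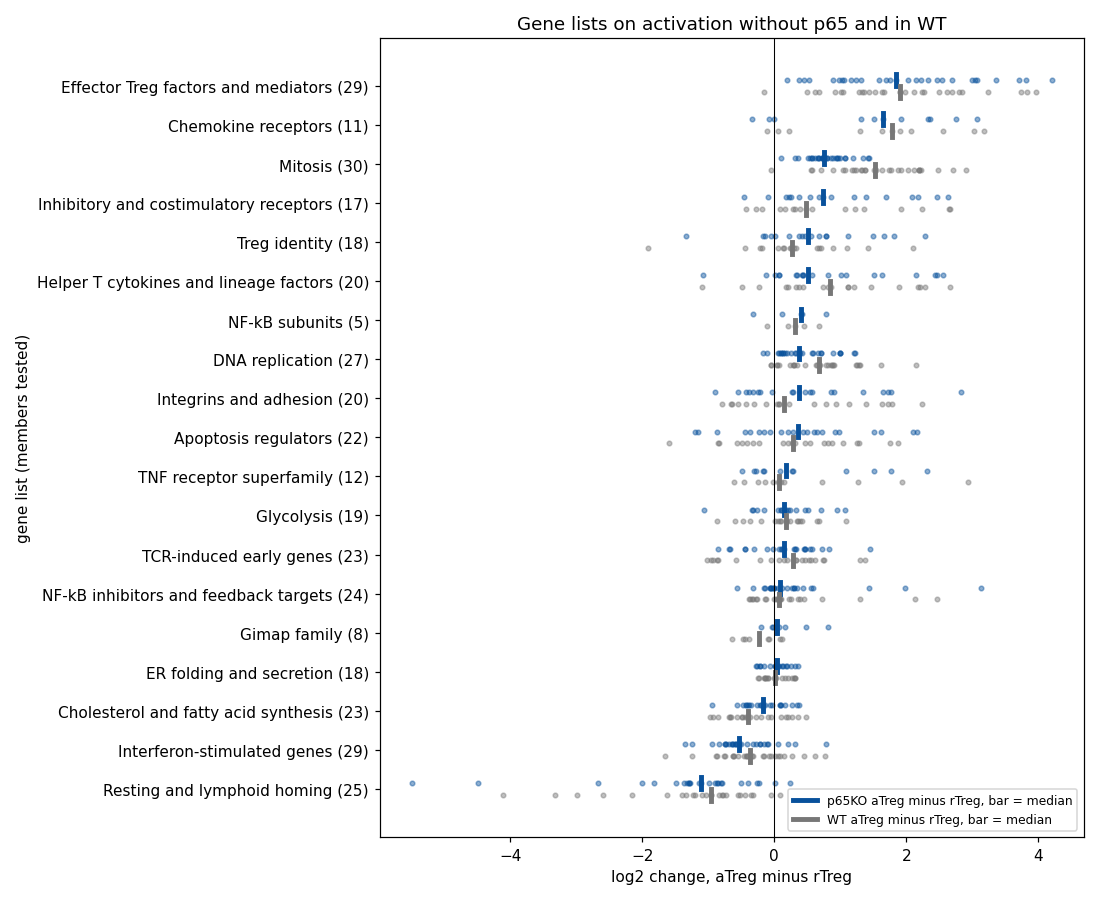
log2 change aTreg minus rTreg of the tested members of each of 19 gene lists (points) in p65KO (upper, blue) and WT (lower, grey), with bars at the medians, ordered by the p65KO median. The effector Treg list lies highest, with medians of 1.84 and 1.90, the resting and homing list lowest, with -1.11 and -0.97, and the mitosis list has medians of 0.76 in p65KO and 1.53 in WT.

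Of the other surface receptors, inhibitory and costimulatory receptors gave 4 calls higher among 17 (5 in WT) and none lower, to be read, as the counts of the lists that follow, against the 2.79% of all genes called higher in p65KO and 7.54% in WT. In this list and in those of the TNF receptors, Treg identity, chemokine receptors, integrins, helper lineage factors and apoptosis, the p65KO count was 0 without any 1 of the 4 p65KO libraries. Pdcd1 (PD-1) was at 14.5 and 23.6 RPKM against 131 and 106 (2.64 ± 0.39, adjusted p = 0.00932), Icos at 59.7 and 32.5 against 172 and 206 (2.08 ± 0.43, adjusted p = 0.0298), and Cd80, a ligand of CTLA-4, at 0.463 and 0.365 against 3.33 and 3.94 (2.18 ± 0.25, adjusted p = 0.00585). The fourth was Havcr2 (TIM-3). The TNF receptor superfamily gave 3 calls higher among 12, all costimulatory receptors that signal to NF-kB: Tnfrsf1b (TNFR2) at 35.5 and 31.4 against 111 and 119 (1.77 ± 0.26, adjusted p = 0.00979), Tnfrsf9 (4-1BB) at 37.9 and 58.8 against 128 and 143 (1.51 ± 0.31, adjusted p = 0.0293) and Tnfrsf4 (OX40) at 170 and 251 against 430 and 445 (1.08 ± 0.23, adjusted p = 0.0365). WT aTregs held 80.3 to 146 of Tnfrsf1b, 120 to 233 of Tnfrsf9 and 381 to 578 of Tnfrsf4, ranges that include the p65KO aTreg values.

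Treg identity genes gave 2 calls higher among 18, Itgae (CD103, which binds E-cadherin) at 20.3 and 20.1 RPKM against 106 and 96.1 (2.29 ± 0.39, adjusted p = 0.0169) and Nrp1 at 22.7 and 16.4 against 61.6 and 77.7 (1.81 ± 0.32, adjusted p = 0.0177). WT gave 2 calls there too. Ctla4 was at 144 and 133 against 323 and 281 without passing (1.12 ± 0.35, adjusted p = 0.104), and Il2ra, the interleukin-2 receptor alpha chain, at 151 and 166 against 115 and 173. Chemokine receptors gave 2 calls higher among 11, Gpr15, a receptor for homing to the colon, at 2.03 and 7.02 against 46.4 and 28.4 (3.08 ± 0.62, adjusted p = 0.0283), and Ccr6 at 5.63 and 6.23 against 25.0 and 22.8 (1.92 ± 0.40, adjusted p = 0.0303). Ccr6 in WT was at 9.93 and 9.12 against 19.7 to 57.6. Integrin and adhesion genes gave 3 calls higher among 20, Itgb1 at 72.5 and 37.0 against 324 and 428 (2.83 ± 0.49, adjusted p = 0.0176), Itgb8, which serves to activate TGF-beta, at 1.86 and 1.02 against 5.62 and 6.27 (1.76 ± 0.38, adjusted p = 0.0366), and Cd81. WT gave 7 higher and 1 lower. With a pseudocount of 0.1 or with no filter on low values the p65KO count was 1, since Itgb8 and Cd81 lost their calls.

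Lineage factors of helper T cells gave 3 calls higher among 20: Gata3, the type 2 factor, at 31.9 and 33.4 RPKM against 75.9 and 58.3 (1.02 ± 0.18, adjusted p = 0.0174), Rora at 1.59 and 4.43 against 24.2 and 14.1 (2.56 ± 0.50, adjusted p = 0.0264) and Ahr, the aryl hydrocarbon receptor, at 2.81 and 2.63 against 15.9 and 11.9 (2.15 ± 0.30, adjusted p = 0.00854). Tbx21, the type 1 factor, did not pass at 3.65 and 0.785 against 13.3 and 10.7 (adjusted p = 0.14). Apoptosis regulators gave 2 calls higher among 22, the inflammatory caspases Casp1, at 7.92 and 6.93 against 39.7 and 30.4 (2.16 ± 0.35, adjusted p = 0.0122), and Casp4, at 2.94 and 1.60 against 12.1 and 10.2 (2.11 ± 0.41, adjusted p = 0.0261). Bcl2, a survival factor, was called lower in WT (-1.59 ± 0.42, adjusted p = 0.0376) and was at 79.8 and 86.7 against 34.0 and 40.2 in p65KO (-1.16 ± 0.46, adjusted p = 0.177).

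The genes of the pathway itself are given by role. None of the 5 NF-kB subunits was called by limma in p65KO or in WT, and 2 had an unadjusted p under 0.05 in p65KO (Rela lower, Nfkb2 higher). Nfkb2 was at 21.4 and 18.4 RPKM in p65KO rTregs and at 34.7 and 34.2 in p65KO aTregs (0.78 ± 0.27, adjusted p = 0.13), Relb at 14.4 and 14.5 against 18.8 and 19.7 (0.40 ± 0.25, adjusted p = 0.367), Rel at 11.1 and 13.8 against 15.9 and 17.5 (0.42 ± 0.46, adjusted p = 0.616), and Nfkb1 at 74.0 and 66.2 against 72.4 and 79.1. Nfkb2, Relb and Rel were higher in both p65KO aTreg libraries than in either rTreg library, by changes that did not pass. WT rTregs held 26.5 and 21.9 RPKM of Relb, above all 4 p65KO libraries, and in the authors' deposited table Relb was lower in p65KO aTregs than in WT aTregs by -1.12 (adjusted p = 0.0149).

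Of 24 inhibitors and feedback targets of NF-kB, 1 was called higher in p65KO (Cd83) and 2 in WT, counts near the 2.79% and 7.54% of all genes, and the median change was 0.0872 in p65KO. The p65KO count was 0 with no filter on low values, without any 1 of the p65KO libraries and without WT aTreg replicate 1 or 2. Cd83, a surface protein that stabilises MHC class II and CD86, was at 4.33 and 22.2 RPKM against 108 and 76.9 (3.13 ± 0.69, adjusted p = 0.039), below WT in both states (23.0 and 33.1 against 115 to 201). Nfkbia, which encodes IkB-alpha, was at 171 and 169 against 145 and 187, with WT at 211 to 349. Tnfaip3 (A20, a deubiquitinating brake on the pathway) was at 36.9 and 32.6 against 47.9 and 38.0. Traf1, an adaptor of TNF receptors, was at 49.3 and 45.3 against 70.0 and 73.1 (0.59 ± 0.17, adjusted p = 0.0883), while in WT the 72.0 and 74.0 of rTregs lay inside the 64.4 to 84.0 of aTregs. For Traf1 the difference of the changes was 0.55 ± 0.23 (unadjusted p = 0.0392, adjusted p = 0.998).

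Promoter windows of 300 bases, from 250 before to 50 after each RefSeq start (GRCm38.p6), were searched on both strands for a kappa B motif (GGG, any 2 bases, then TTTCC) and an AP-1 motif (TGANTCA); 8208 of the 10656 tested genes matched a window by symbol. The kappa B motif was found in 171 of the 8208 genes (2.08%), in 9 of 230 genes called higher in p65KO (3.91%) and in 0 of 33 called lower. The AP-1 motif was found in 463 (5.64%), 23 (10.0%) and 0. No match of the kappa B motif overlapped a match of the AP-1 motif. A match is a description and not a binding site. Windows are shown for 3 genes called higher without p65, whose promoters hold the kappa B motif, and for Il1rn, the low gene described above. They were picked from the named genes with a match. Others, not printed, included Mif4gd (called higher) and Rel, Nfkb2, Mvd and Bbc3 (not called). Capitals mark the motif on either strand, and for genes with several starts a single window is printed.
Tnfrsf9, chr4:150927749-150928048, plus strand, match beginning 43 bases before the start: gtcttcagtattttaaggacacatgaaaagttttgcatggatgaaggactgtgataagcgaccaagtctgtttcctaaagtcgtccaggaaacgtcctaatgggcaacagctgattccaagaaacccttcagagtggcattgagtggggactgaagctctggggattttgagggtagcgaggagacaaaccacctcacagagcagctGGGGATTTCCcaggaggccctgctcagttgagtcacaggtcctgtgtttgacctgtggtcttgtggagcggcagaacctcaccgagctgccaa
Casp4, chr9:5308599-5308898, plus strand, 2 matches: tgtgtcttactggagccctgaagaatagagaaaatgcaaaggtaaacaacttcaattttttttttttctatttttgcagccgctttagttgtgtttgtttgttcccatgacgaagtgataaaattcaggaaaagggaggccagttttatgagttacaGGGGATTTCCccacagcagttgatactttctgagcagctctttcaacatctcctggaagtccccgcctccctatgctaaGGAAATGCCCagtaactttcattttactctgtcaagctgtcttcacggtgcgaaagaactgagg
Anxa4, chr6:86793535-86793834, minus strand, match beginning 55 bases before the start: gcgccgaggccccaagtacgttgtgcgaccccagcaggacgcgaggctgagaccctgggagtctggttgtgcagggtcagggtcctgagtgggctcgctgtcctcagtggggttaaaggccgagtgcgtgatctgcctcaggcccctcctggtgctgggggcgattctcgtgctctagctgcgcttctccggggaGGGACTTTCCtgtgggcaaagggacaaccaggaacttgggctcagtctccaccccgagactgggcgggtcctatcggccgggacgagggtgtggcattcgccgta
Il1rn, chr2:24345121-24345420, plus strand, match beginning 51 bases before the start: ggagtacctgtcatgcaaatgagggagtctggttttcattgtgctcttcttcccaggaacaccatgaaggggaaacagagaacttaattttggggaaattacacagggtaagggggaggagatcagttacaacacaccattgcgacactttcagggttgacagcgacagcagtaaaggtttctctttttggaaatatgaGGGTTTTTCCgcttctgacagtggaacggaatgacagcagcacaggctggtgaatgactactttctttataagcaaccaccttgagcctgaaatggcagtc
Tnfrsf9, Casp4 and Anxa4 were called higher in p65KO aTregs, and Il1rn was not. Anxa4, a calcium-dependent phospholipid-binding protein, was at 1.54 and 1.76 RPKM against 7.26 and 7.15 (1.84 ± 0.29, adjusted p = 0.0111).

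Early genes of T cell receptor signalling gave 1 call higher among 23 in p65KO, the orphan nuclear receptor Nr4a2, at 0.855 and 0.833 RPKM against 3.10 and 3.21 (1.44 ± 0.34, adjusted p = 0.0494), against 4 higher and 2 lower in WT. The call of Nr4a2 was lost with a pseudocount of 1, with no filter, with the 3 RPKM filter, with median-of-ratios scaling and without any 1 of the p65KO libraries, and WT gave 1 higher and 0 lower without WT aTreg replicate 1 or 2. Egr2, a zinc-finger factor, was at 16.0 and 14.6 against 23.8 and 27.4 in p65KO (0.72 ± 0.21, adjusted p = 0.0915) and was called in WT at 13.4 and 12.0 against 25.4 to 36.6. Dusp2, a phosphatase of MAP kinases, was at 283 and 252 against 148 and 147 (-0.85 ± 0.20, adjusted p = 0.0513), just outside the threshold, and was called lower in WT. Glycolysis gave 1 call higher among 19, Tpi1, at 36.4 and 39.0 against 73.5 and 73.5 (0.96 ± 0.15, adjusted p = 0.0122). WT gave 4 higher, and 0 without WT aTreg replicate 1 or 2. The median change of the list was 0.15 in p65KO and 0.17 in WT.

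The genes of resting and recirculating lymphocytes were mostly lower in p65KO aTregs, but few passed the test. Of 25 tested, 1 was called lower in p65KO (Foxp1) and 5 in WT, while 12 had an unadjusted p under 0.05 in p65KO. The median change was -1.11 in p65KO and -0.97 in WT, and in 23 of 25 both p65KO aTreg libraries lay below both p65KO rTreg libraries, against 37.0% of all genes, and 23 of 25 changes were below 0, against 57.8%. Foxp1, a factor that maintains quiescence, was at 32.5 and 34.9 RPKM against 19.3 and 16.5 (-0.90 ± 0.20, adjusted p = 0.0422). Ccr7, the lymph node homing receptor, was at 401 and 366 against 132 and 177 (-1.32 ± 0.48, adjusted p = 0.149), Klf2, a factor of quiescence and lymphoid recirculation, at 291 and 310 against 121 and 190 (-0.98 ± 0.43, adjusted p = 0.213), and Bach2 at 15.8 and 17.4 against 6.94 and 5.46 (-1.36 ± 0.42, adjusted p = 0.101). The summed level of the list was 4770 and 5299 in p65KO rTregs and 2138 and 2506 in p65KO aTregs, and 1502 to 3186 in WT aTregs, so the p65KO aTregs lay within the WT range. Foxp1 lost its call without any 1 of the 4 p65KO libraries, without WT aTreg replicate 1 or 2 and with no filter on low values, whereas fitting only the groups compared called 14 of the 25 lower. The WT count was 1 without any 1 of the p65KO libraries, 0 without WT rTreg replicate 1 or WT aTreg replicate 1 or 2, 3 without WT rTreg replicate 2 and 11 without WT aTreg replicate 3.

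The cell cycle lists showed no calls in p65KO and many in WT. Of 30 tested genes of mitosis, 0 were called in p65KO by limma and 19 were called higher in WT, with medians of 0.76 and 1.53. Over all genes 2.79% were called higher in p65KO and 7.54% in WT. At an unadjusted p under 0.05, 11 were higher in p65KO. All 30 changes were above 0 in p65KO, and in 29 both aTreg libraries lay above both rTreg libraries, against 27.2% of all genes. Mki67, the proliferation marker, was at 7.39 and 7.84 RPKM in p65KO rTregs and at 13.9 and 16.9 in p65KO aTregs (0.97 ± 1.05, adjusted p = 0.611). In WT it was at 5.85 and at 0, which may stand for a value below 0, against 9.44 to 16.5. Ccnb1, the mitotic cyclin B1, was at 1.69 and 2.32 against 6.87 and 5.61 (1.43 ± 0.39, adjusted p = 0.0724), Aurkb, a mitotic kinase, at 3.36 and 3.80 against 8.87 and 8.68 (1.19 ± 0.46, adjusted p = 0.174).

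The summed mitosis level was 132 and 154 in p65KO rTregs, above the 103 and 35.4 of WT rTregs, and 247 and 276 in p65KO aTregs, above the 149 to 222 of WT aTregs. No gene of the list had an unadjusted p under 0.05 in the difference of activation, whose median was -0.68, and without WT rTreg replicate 2, the library at 35.4, that median was -0.09. The WT count was then 8, and it was 0 without WT aTreg replicate 1 or 2 and 11 without any 1 of the p65KO libraries. Fitting only the groups compared reversed the order of the counts, to 18 called in p65KO and 3 in WT. Some mitosis genes had values below 0 in WT libraries, which enter the sums as 0. With those genes left out, 18 of 26 were called higher in WT, with a median of 1.45. Of 27 genes of DNA replication 0 were called in p65KO, 7 had an unadjusted p under 0.05 and 10 were called higher in WT, with medians of 0.38 and 0.68. Fitting only the groups compared gave 9 in p65KO and 2 in WT, and the WT count was 0 without WT aTreg replicate 1 or 2, 2 without WT rTreg replicate 2, 4 without WT rTreg replicate 1 and 4 to 6 without any 1 of the p65KO libraries. Mcm6, a subunit of the replicative helicase, was at 50.3 and 46.5 against 78.1 and 80.1 (0.70 ± 0.17, adjusted p = 0.0541).

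**Figure D5:**
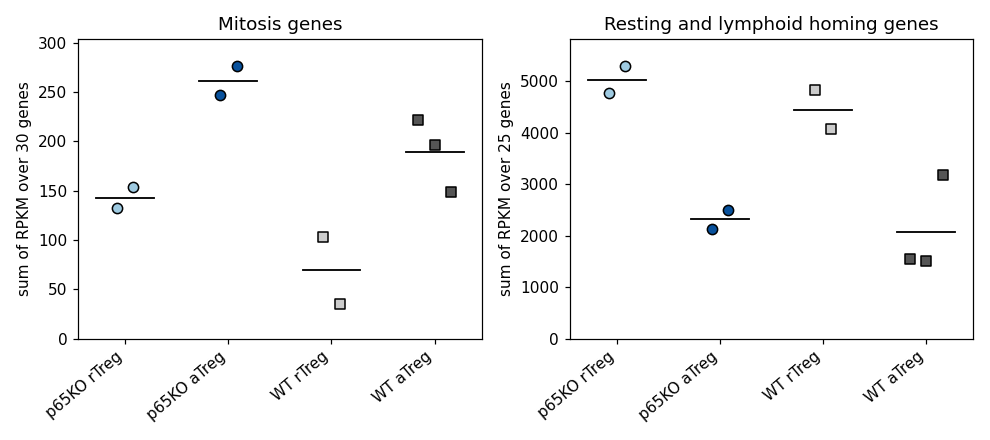
Sum of RPKM over the mitosis genes (left) and the resting and lymphoid homing genes (right) in each library; points are libraries and bars group means. Mitosis sums run from 132 to 154 in p65KO rTregs and from 247 to 276 in p65KO aTregs, with WT rTregs at 35.4 and 103, and the resting sums are lower in every aTreg library than in any rTreg library.

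Interferon-stimulated genes gave 0 calls among 29 in p65KO by limma. At an unadjusted p under 0.05 there were 10, of which 9 were lower, without a share of all genes to set beside them. Their median change was -0.54 in p65KO and -0.37 in WT. Fitting only the groups compared called 12 lower and 1 higher in p65KO. Their summed level was 2711 to 2964 in p65KO rTregs, above the 1974 to 2207 of WT rTregs, and 1741 to 2156 in p65KO aTregs. Oasl2, an antiviral protein, was at 19.1 and 24.4 RPKM against 9.02 and 8.68 (-1.24 ± 0.33, adjusted p = 0.0724). Cholesterol and fatty acid synthesis gave 0 calls among 23 in p65KO, with 6 at an unadjusted p under 0.05, and 4 lower calls in WT, which were 0 without WT rTreg replicate 1 or WT aTreg replicate 1 or 2. Fitting only the groups compared called 4 lower in p65KO. Mvd, an enzyme of the mevalonate pathway, was called lower in WT and was at 18.5 and 18.1 against 12.3 and 13.8 in p65KO (-0.47 ± 0.16, adjusted p = 0.125). The Gimap GTPases (0 of 8, 2 at an unadjusted p under 0.05) and the genes of protein folding in the endoplasmic reticulum (0 of 18, 1) also gave no call in p65KO.

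Markers of other cells were summed in the same libraries. NK and cytotoxic markers stood at 27.6 to 46.6 RPKM in p65KO rTregs and at 100 to 127 in p65KO aTregs, but 1 of the 5 tested markers was above 0 and 4 were below, with a median of -0.00415. The largest in aTregs was Nkg7, a granule protein of cytotoxic T and NK cells, at 22.2 and 15.1 against 118 and 97.7 (called higher, adjusted p = 0.0183), while the NK receptor Ncr1 did not exceed 0.0933 and Prf1 was lower. T cell and Treg markers summed to 1689 to 1777 in rTregs and 1772 to 1985 in aTregs. Plasma cell markers stood at 1.23 to 1.60 and 1.91 to 3.79, CD8 T cell markers at 16.2 to 18.5 and 9.03 to 12.3, erythroid markers at 31.3 to 37.3 and 23.0 to 29.7, myeloid markers at 85.7 to 90.5 and 77.9 to 109, mainly Cst3, and stress genes at 1253 to 1350 and 1204 to 1209, of which Gadd45b was called higher. The part of these markers in the results was not tested.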

How the data were processed

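The deposited values of the 13 sorted libraries are RPKM per gene after an adjustment that the sources used here do not describe. Per the submitters' processing notes, the tools were STAR and DESeq2 1.10.1 and the genome build was mm10. Of the 14839 genes listed in the deposited table, 14818 had library values. Of those values 2.53% were below 0 (the lowest -30.7) and were set to 0, and libraries of the same replicate number shared 15883 tied values in 26 pairs, against 0 in 52 pairs of different numbers. Read totals per library are not given with the RPKM values, so no counting error could be computed.

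From the deposited RPKM, log2(RPKM + 0.5) was computed for the 10656 genes that reached 1 RPKM in 2 or more libraries. A model of group means over all 13 libraries was fitted with limma 3.58.1 in R 4.3.3 (eBayes with trend), with Benjamini-Hochberg adjustment over all genes tested and a two-sided threshold of 0.05. Contrasts were aTreg minus rTreg in p65KO, WT and cRelKO, and p65KO minus WT. Tested on simulated data of the p65KO comparison with 10656 genes, 82% of 100 changes of 1 on the log2 scale and 97% of 100 changes of 2 were recovered, with 6 false calls. The changed genes were drawn only from those averaging at least 5 RPKM, with independent normal noise. Recovery in lower genes was not tested. The authors' deposited table also holds their own log2 fold changes and p-values, which were used for comparisons with WT only; its p-values were adjusted here over 14818 genes.

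The members, the gene lists and the comparisons were chosen with earlier results of these data known. Genes are named by rule: the NF-kB subunits, Foxp3 and Cd44, the 8 largest called rises and falls with a mean of at least 5 RPKM and no overlap, the 3 members of each list with the smallest p and the member with the smallest p in the difference from WT, and called genes that differ most between genotypes. Further list members were named for their known role after their values were seen. Alternatives were 2 other pseudocounts, 2 other filters, another scaling, robust variance, fitting only the groups compared, a replicate block, leaving out genes with a value below 0 and leaving out each library. The 6 other libraries of the series were not used here. Some genes that the rule selects are not reported here.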

Additional observations from a re-analysis of the deposited data

Results flagged for a closer look

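In 4 of the named genes all libraries moved in opposite directions in p65KO and in WT. None of these differences passed the test (limma, adjusted p = 0.998 for each). All 4 genes had been named for a small p in the difference of activation, a choice that favours opposite directions. How many of all tested genes move in this way was not computed, so the count has no background beside it. Caml, a protein that inserts tail-anchored proteins into the endoplasmic reticulum membrane, was at 14.2 and 13.5 RPKM in p65KO rTregs and at 15.7 and 14.4 in p65KO aTregs, but at 24.0 and 20.0 against 13.6 to 18.1 in WT (difference of the changes 0.61 ± 0.19, unadjusted p = 0.00929). Zfp873, a zinc finger protein, was at 3.97 and 4.71 against 5.76 and 4.71 in p65KO, where the nearest libraries differ only beyond the printed digits, and at 6.69 and 6.01 against 4.11 to 4.98 in WT (0.70 ± 0.20, unadjusted p = 0.00483). For both genes the WT rTregs stood above every other p65KO and WT library.

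Mcm2, a subunit of the replicative helicase, was at 43.9 and 44.2 RPKM in p65KO rTregs and at 37.7 and 40.3 in p65KO aTregs, and at 29.3 and 28.0 against 31.4 to 37.5 in WT (-0.47 ± 0.16, unadjusted p = 0.0135). Hyou1, a chaperone of the endoplasmic reticulum, was at 29.5 and 26.6 against 24.7 and 21.3 in p65KO, and at 20.9 and 23.7 against 24.0 to 29.5 in WT (-0.54 ± 0.28, unadjusted p = 0.0819). For both genes the p65KO rTregs stood above the WT rTregs.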

How the results depend on the processing

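Counts depended strongly on the estimate of the spread. Fitting only the groups compared gave 865 higher and 585 lower calls in p65KO, 202 and 6 in WT, and 3 genes lower in both. Leaving out a library gave 0 to 7 higher and 0 to 4 lower in p65KO, 83 to 1271 and 0 to 1692 in WT, and 0 to 541 higher and 0 to 169 lower in both. The 3 RPKM filter gave 26 lower in p65KO, and the authors' deposited WT comparison gave 7 lower in both. The difference from WT gave 0 calls under every alternative run. The median change in p65KO of the genes chosen in cRelKO was 1.32 with a pseudocount of 0.1, 0.93 with 1, 0.71 with no filter (0.68 in WT), 1.19 with the 3 RPKM filter, 1.05 with only the groups compared and 1.07 to 1.33 without single p65KO libraries. Of 107 named genes, 49 were called, and all 49 lost the call without some library while 0 changed sign. Among uncalled genes, leaving out p65KO libraries gave -0.0407 to 0.49 for Foxp3, -0.18 to 0.19 for Tgfb1 (-0.0414 among them), -0.18 to 0.00932 for Cxcr4 (0.00813), -0.0122 to 0.13 for Slc16a1 and -0.0854 to 0.11 for Ifrd1 (-0.0403). With a replicate block the p65KO calls were 548 higher and 183 lower, the WT lower calls 931, the genes in both 499 higher and 155 lower, and the median 0.89 in p65KO against 1.19 in WT. The replicate numbers pair libraries only by number: deviations of same-numbered p65KO libraries correlated by 0.147 over 10656 genes, with 2 pairs. Deviations of same-numbered libraries of different genotypes were not compared in this way. The cause of these shifts was not tested. The size in genes called in cRelKO at an adjusted p was not run, since 0 genes were called.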

Other observations

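Further gene groups were formed by symbol after the values were seen, so they are given as counts only. Of 85 tested cytosolic ribosomal protein genes, 0 were called in p65KO by limma and 3 had an unadjusted p under 0.05. In 83 of them the change was below 0, with a median of -0.42, and in 74 both p65KO aTreg libraries lay below both p65KO rTreg libraries, against 37.0% of all genes. In WT the median was -0.38, and 82 changes were below 0. No overlap in that direction was seen in 23 genes in WT. With 3 WT aTreg libraries this is harder to reach than in p65KO, so the 74 and the 23 cannot be set side by side. Of 45 nuclear genes of respiratory complex I, 0 were called in p65KO and 2 had an unadjusted p under 0.05, with 42 changes below 0 and a median of -0.35 (-0.29 in WT).

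Over all genes 42.2% of changes were above 0 in p65KO and 2.79% were called higher. All 7 annexins tested had a change above 0 in p65KO, with a median of 0.46 and 2 called higher. All 7 tested S100 genes had a change above 0, with a median of 0.98 and 1 called higher. Of 11 tetraspanins, 2 were called higher, with a median of 0.42 and 3 changes below 0. The WT medians were 0.42, 0.67 and 0.44 in the same order. Of 18 vacuolar ATPase genes 1 was called higher, with 13 changes below 0 and a median of -0.19.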
